A study of Homo sapiens with 6 samples.

Results

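Steroid-converting enzymes make, activate or inactivate estrogens and androgens inside a cell, and 9 of their genes were followed here in pLUM and pLB cells: HSD17B1, HSD17B2, HSD17B4, HSD17B8, HSD17B12, STS, SULT1E1, AKR1C3 and SRD5A1. They were chosen by gene name from the array's annotation, were all present on the array and had 10 probes, of 34127 gene probes that carry 25940 names of genes or transcripts. pLUM (pure luminal) and pLB (pure luminobasal) are human breast cancer cell lines that descend from T47Dco, a subline of the ER+PR+ line T47D, by way of tumors grown in ovariectomized NSG mice. The founders of pLUM were CLD3+CD49f- cells from a tumor grown with estradiol (E), and those of pLB were CLD3-CD49f+ cells from a tumor grown with E plus progesterone. Each line thus goes back to cells of a single tumor that were purified by repeated sorting, and both started from wild-type T47Dco. On the arrays, pLUM cells had received 1 nM E for 72 h (3 replicates) and pLB cells were estrogen withdrawn, or EWD (3 replicates). Line and hormone therefore coincided and cannot be told apart, a limit that holds for every comparison below. Cells of both lines were fixed, stained for CK5 and sorted before RNA was extracted. Which CK5 fraction was hybridized is not given in the sources used here.

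Estradiol and testosterone bind their receptors far better than their oxidized partners estrone and androstenedione, and the 17β-hydroxysteroid dehydrogenases (17β-HSDs) interconvert these pairs, each enzyme favoring reduction or oxidation. Sulfation by an estrogen sulfotransferase makes estrogens unable to bind the receptor, and steroid sulfatase reverses that step. In breast tissue these enzymes set the local supply of active hormone from circulating precursors, and several of them also act on fatty acids or prostaglandins.

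Each array measured RNA with a single dye, so that a spot's brightness stood for 1 sample. Signals are given on the log2 scale, with the 75th percentile of the same array subtracted, so that 0 is the level of a bright probe, and a difference of 1 between arrays is 2-fold. Such a level holds for its own probe only and cannot be set against that of another gene. The scanner software's flag for signals well above background is written below as "above background", and the faintest such signal lay between -5.70 and -4.75 on the 6 arrays. The 3 pLUM arrays were on slide 1 with pLB replicate 1, in a shared scan, and pLB replicates 2 and 3 were on slide 2. A fit with slide as a block therefore compares pLB replicate 1 alone with the 3 pLUM arrays, and its values, given below as within slide 1, carry no replicate check for pLB. Pearson's r across tested probes was 0.984 to 0.991 between pLUM arrays, 0.972 to 0.989 between pLB arrays and 0.780 to 0.806 between a pLUM and a pLB array. The marker genes went with the labels. All 4 pLB markers were higher in pLB (KRT5, EGFR, TP63 and ITGA6) and all 5 pLUM markers were lower (CLDN3, ESR1, PGR, GATA3 and FOXA1), and KRT5 and TP63 were above background on 0 of 3 pLUM arrays, as PGR was on 0 of 3 pLB arrays. CLDN3 and ITGA6 encode the proteins on which the lines were sorted, and KRT5 the one for which the cells were stained. The RNA is that of many cells, so that fewer cells with a transcript and less transcript per cell cannot be told apart.

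The probes that carried the measurements are 60 bases long. Probes are shown for the genes called higher in pLB (SULT1E1, AKR1C3 and HSD17B12) and for the oxidative enzymes HSD17B8 and HSD17B4. For HSD17B12 the second probe is shown, whereas the call and the counts of that gene rest on the first. The values of the other 4 genes below rest on the probes shown. Their hg19 positions are those of the array files. The SULT1E1 probe is on the minus strand at chr4:70707735-70707794 (NM_005420), and the AKR1C3 probe is at chr10:5147789-5147848 (NM_003739). The second HSD17B12 probe is at chr11:43775611-43775670 (NM_016142), 5′ of the first. The HSD17B8 probe (NM_014234) spans 162 bases of chromosome 6, from 33173493 to 33173654, and that of HSD17B4 (NM_000414) 5078 bases of chromosome 5, from 118867067 to 118872144, so that both cross an exon junction.
SULT1E1 probe: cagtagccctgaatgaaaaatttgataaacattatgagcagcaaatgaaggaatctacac
AKR1C3 probe: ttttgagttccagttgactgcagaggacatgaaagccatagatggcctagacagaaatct
HSD17B12 second probe: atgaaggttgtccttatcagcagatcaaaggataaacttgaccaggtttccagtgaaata
HSD17B8 probe: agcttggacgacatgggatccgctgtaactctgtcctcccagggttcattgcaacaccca
HSD17B4 probe: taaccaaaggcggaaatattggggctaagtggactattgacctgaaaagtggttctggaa

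Promoters of 6 of the 9 genes, with 11 start sites in all, were found in a RefSeq table (GRCh38.p14), those of HSD17B4, HSD17B8, STS, SULT1E1, AKR1C3 and SRD5A1. The 250 bases before the start are shown for SULT1E1 (chr4:69860146-69860395, minus strand) and for a start of AKR1C3 (chr10:5094164-5094413, plus strand), both called higher in pLB. Capitals mark matches, on either strand, to the TATA box letters TATAAA, the CCAAT box or the AP-1 letters TGANTCA.
SULT1E1 promoter: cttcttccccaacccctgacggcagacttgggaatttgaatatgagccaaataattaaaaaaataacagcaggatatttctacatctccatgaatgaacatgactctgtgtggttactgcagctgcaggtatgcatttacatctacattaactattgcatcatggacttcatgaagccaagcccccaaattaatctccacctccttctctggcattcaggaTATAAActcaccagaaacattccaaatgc
AKR1C3 promoter: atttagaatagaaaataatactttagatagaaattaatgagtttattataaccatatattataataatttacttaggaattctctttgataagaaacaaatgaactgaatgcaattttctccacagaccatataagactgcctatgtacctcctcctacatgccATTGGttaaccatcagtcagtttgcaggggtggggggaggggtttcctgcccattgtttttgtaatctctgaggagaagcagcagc
SULT1E1 holds TATAAA from 29 bases before its start, and that motif was in 3 of the 11 member promoters and in 10.7% of all 35116 promoters in the table. The AKR1C3 window holds CCAAT, on the opposite strand and from 86 bases before the start, and that motif was in 4 of the 11 and in 32.0% of all. The other AKR1C3 start in the table has TATAAA from 26 and CCAAT from 73 bases before it, both on the opposite strand. The palindromic estrogen response element GGTCANNNTGACC was in 0 of the 11 member promoters and in 0.0399% of all promoters. Its half-site GGTCA was in 3 of the 11, 1 of HSD17B4 and 2 of STS, against 32.6% of all promoters. TGANTCA was in 0 of the 11 and in 6.57% of all. These are matches of letters and say nothing of binding.

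Of the 9 genes, 7 were above background on at least 3 of the 6 arrays and could be tested. SULT1E1 met this limit through its pLB arrays alone, so that its counting below as higher and as not overlapping is not independent of the filter. With calls set at 2-fold and an adjusted p under 0.05, 3 of the 7 were higher in pLB (SULT1E1, AKR1C3 and HSD17B12) and 2 were lower (HSD17B1 and HSD17B8), whereas HSD17B4 and SRD5A1 stayed under 2-fold. Across all 17670 tested genes 45.7% passed the same thresholds, 22.7% higher and 23.0% lower, so that changes of this kind were common between these lines. All 7 passed the adjusted p alone, as 63.5% of all genes did. The signals of the lines did not overlap for 8 of 8 tested member probes, against 68.1% of all tested probes. The median log2 fold change was 0.92 over the 7 genes and 0.03 over all genes. STS was above background on 2 of 6 arrays and HSD17B2 on 0 of 6, and neither was tested. The replicates are sorts of the same lines, so that p-values measure the spread between sorts, which may be technical, and the smallest two-sided p that an exact permutation test can reach with 3 arrays in each line is 0.1.

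**Figure D1:**
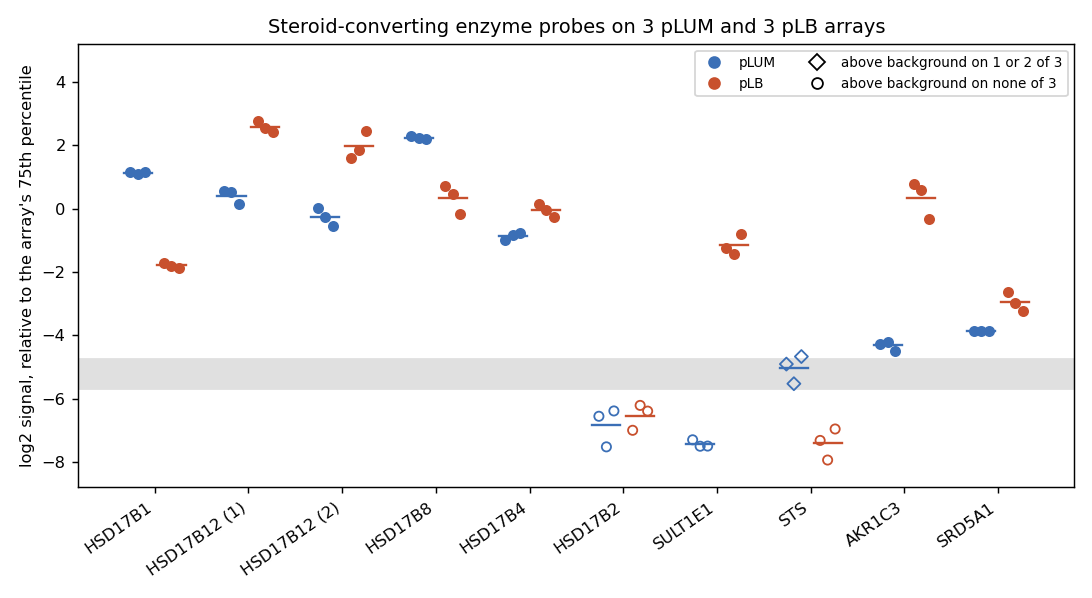
Log2 signal of the 10 member probes, with each array's 75th percentile at 0, on 3 pLUM (blue) and 3 pLB (red) arrays, each ordered by replicate number, with a line at the mean. Open circles are probes above background on 0 of 3 arrays of a line, open diamonds STS in pLUM (2 of 3), and the gray band holds the faintest signal above background of each array. HSD17B12 (1) and (2) are its 2 probes, and only HSD17B2 overlaps between the lines.

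HSD17B1, the 17β-HSD that reduces estrone to estradiol, was lower in pLB. Its probe (NM_000413, chr17:40707039-40707098 of hg19) read 1.15, 1.08 and 1.15 on the pLUM arrays and -1.71, -1.80 and -1.86 on the pLB arrays, in the order of the replicate numbers, as in all such lists below. The replicates of each line lay close together, and the lines were far apart. The mean fell from 1.13 ± 0.04 (SD, n = 3) to -1.79 ± 0.08 (SD, n = 3), or 7.55-fold (95% CI 5.93 to 9.61, adjusted p = 5.2e-06 from limma). Among 23105 tested probes its change ranked 984 from the most negative. Within slide 1, pLB replicate 1 was -2.83 from the mean of pLUM, on the log2 scale, and with each array left out the difference stayed between -2.96 and -2.88. RefSeq also lists pseudogenes of HSD17B1 and HSD17B12, and cross-hybridization was not tested.

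HSD17B12 encodes the ketoacyl-CoA reductase of very long chain fatty acid elongation, an enzyme for which reduction of estrone has also been described, and it rose in pLB. Its representative probe (chr11:43877854-43877913 of hg19) read 0.56, 0.51 and 0.15 on the pLUM arrays and 2.77, 2.54 and 2.42 on the pLB arrays. The second probe, whose sequence is given above, read 0.01, -0.25 and -0.55 in pLUM and 1.61, 1.84 and 2.45 in pLB. Every pLB array exceeded every pLUM array by both probes. The first gave a 4.50-fold increase (95% CI 3.31 to 6.13, adjusted p = 6.1e-05 from limma) and the second a 4.70-fold increase (95% CI 3.05 to 7.22, adjusted p = 0.00027 from limma). Their log2 fold changes differed by -0.06 (exact permutation test, two-sided p = 0.8).

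The change of HSD17B12 exceeded that of HSD17B1 by 5.09 on the log2 scale, and by at least 4.85 for any choice of a pLUM and a pLB array. The exact permutation test of this difference gave a two-sided p of 0.1, the smallest that 6 arrays allow. That p was fixed in advance, since HSD17B12 was higher and HSD17B1 lower on every pLB array than on any pLUM array. The test therefore adds nothing to the separate results, in which HSD17B12 and HSD17B1 were called in opposite directions.

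HSD17B8 can oxidize estradiol and takes part in mitochondrial fatty acid synthesis. It fell in pLB. The probe shown above read 2.29, 2.22 and 2.19 on the pLUM arrays and 0.71, 0.45 and -0.18 on the pLB arrays. The pLUM replicates were nearly equal, and pLB replicate 3 was the lowest of all. In pLUM the mean was 2.23 ± 0.05 (SD, n = 3), against 0.33 ± 0.46 (SD, n = 3) in pLB, which is 3.75-fold lower (95% CI 2.51 to 5.61, adjusted p = 0.00042 from limma). With each array left out the log2 fold change ranged from -2.10 to -1.65, and within slide 1 it was -1.52.

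HSD17B4 is a peroxisomal enzyme of fatty acid β-oxidation that also oxidizes estradiol. Its signals were -0.99, -0.84 and -0.77 in pLUM and 0.14, -0.05 and -0.26 in pLB. All pLB arrays were above all pLUM arrays, but the difference was small. The increase of 0.81 on the log2 scale (standard error 0.17), or 1.75-fold, had an adjusted p of 0.0050 from limma and did not reach the 2-fold threshold. Within slide 1, the single array pLB replicate 1 was 1.00 above the mean of pLUM. Over the alternatives the adjusted p was 0.0027 to 0.039. The change of HSD17B4 exceeded that of HSD17B8 by 2.72 on the log2 scale (exact permutation test, two-sided p = 0.1, the smallest possible). This p was likewise fixed in advance, since HSD17B4 was higher and HSD17B8 lower on every pLB array than on any pLUM array.

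HSD17B2, the main oxidative enzyme for estradiol and testosterone in many tissues, was not detected. Its probe (NM_002153, chr16:82131897-82131956 of hg19) had 10 spots per array, of which 0 to 3 were left out as outliers and 0 were above background. The averages were -6.56, -7.52 and -6.39 in pLUM and -7.00, -6.21 and -6.39 in pLB. The lines overlapped, all values lay below the faintest signal above background of their arrays, and no fold can be given.

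**Figure D2:**
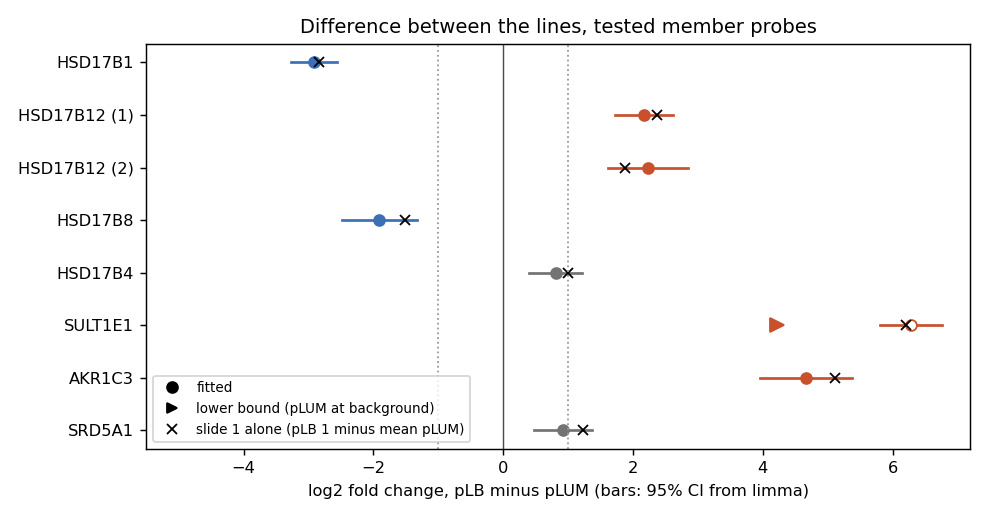
Log2 fold change, pLB minus pLUM, of the 8 tested member probes (points) with 95% CI from limma (bars), red for higher, blue for lower and gray for under the 2-fold threshold, which the dotted lines mark. Crosses give pLB replicate 1 minus the mean of pLUM within slide 1. SULT1E1 is open because pLUM was at background, and its arrowhead marks the lower bound, 18.7-fold.

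SULT1E1, the sulfotransferase with the highest affinity for estradiol and estrone, rose from background in pLUM to a clear signal in pLB. The probe read -7.30, -7.50 and -7.50 on the pLUM arrays, where it was above background on 0 of 3, and -1.23, -1.42 and -0.81 on the pLB arrays, where it was above background on 3 of 3. The pLUM values lay below the faintest signal above background of their arrays, and the pLB values far over it. A fold against such a background is a bound only. In pLB SULT1E1 was higher by at least 18.7-fold, with the mean of pLB compared with the faintest signal above background of each pLUM array. The adjusted p of 8e-07 from limma belongs to the fit to the signals as read, not to this bound. With dim signals raised to the faintest above background, the log2 fold change was 4.23 (adjusted p = 2.1e-06 from limma). The probe passed the filter on dim probes only through its pLB arrays. With normexp, another background correction, run with an offset of 50 added to every signal, the bound was 3.13-fold and the call held. An added constant shrinks the folds of faint probes, and its share in this and the other normexp values was not tested. Over the alternatives the adjusted p was 4.4e-10 to 0.0065. The fitted log2 fold change was 6.28, and 6.11 to 6.41 with each array left out.

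STS encodes steroid sulfatase, which frees estrone and other steroids from their sulfates. Its probe (NM_000351, chrX:7271727-7271786 of hg19) read -4.91, -5.53 and -4.67 in pLUM, with 2 of 3 arrays above background, and -7.32, -7.94 and -6.96 in pLB, with 0 of 3. Every pLUM array was above every pLB array, but all were faint. The means differed by -2.37 on the log2 scale. As a bound, STS was at least 1.20-fold lower in pLB, or 1.60-fold with normexp. In the fit without a filter on dim probes, STS passed as lower (adjusted p = 0.0014 from limma), and under the filter it was not tested.

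AKR1C3 reduces androstenedione to testosterone, can reduce estrone, and is also a prostaglandin F synthase. It rose in pLB. Its signals were -4.27, -4.20 and -4.48 in pLUM and 0.79, 0.58 and -0.33 in pLB, and it was above background on all 6 arrays. The pLUM arrays were uniformly faint, and pLB replicate 3 was the lowest of the bright ones. The mean rose from -4.32 ± 0.15 (SD, n = 3) to 0.34 ± 0.60 (SD, n = 3), or 25.3-fold (95% CI 15.5 to 41.4, adjusted p = 1.5e-05 from limma). With each array left out the log2 fold change was 4.44 to 5.00, and within slide 1 it was 5.11. With normexp it was 2.86 and still called. The AKR1C genes are close paralogs, and cross-hybridization of the probe was not tested.

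SRD5A1 converts testosterone to the more potent dihydrotestosterone. Its probe (NM_001047, chr5:6668693-6668752 of hg19) read -3.85, -3.87 and -3.88 in pLUM and -2.63, -2.97 and -3.23 in pLB. The pLB arrays were all higher, with wider spread. The increase of 0.92 on the log2 scale (standard error 0.19), or 1.89-fold, had an adjusted p of 0.0044 from limma but was under the 2-fold threshold. It was 1.06 without pLB replicate 3, where it passed, and 1.23 for the single array pLB replicate 1 within slide 1, but 0.08 with normexp (adjusted p = 0.83 from limma, with 0.0016 to 0.83 over the alternatives).

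**Figure D3:**
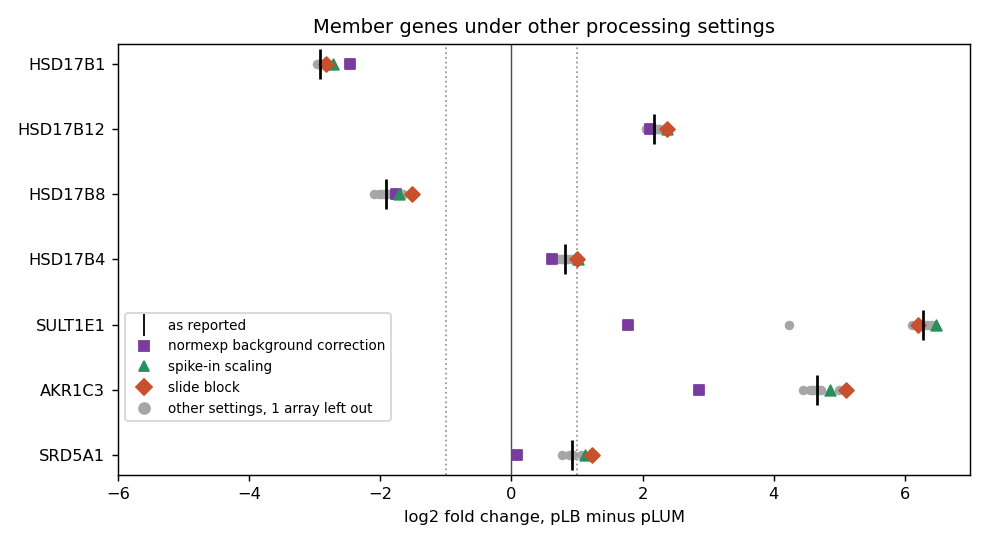
Log2 fold change, pLB minus pLUM, of the 7 tested genes as reported (black line) and under each alternative (points), with the 2-fold threshold dotted. Normexp with its offset of 50 (purple squares) moved SULT1E1 to 1.78, AKR1C3 to 2.86 and SRD5A1 to 0.08, and no gene changed sign.

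The wider pathway was read from 58 further genes in 6 lists. Of these, 52 had a probe under their own name and 31 were tested, with 9 higher in pLB, 5 lower and 17 that did not pass, beside 22.7% higher and 23.0% lower among all genes. These shares also stand beside the counts of each list below. STAR, CYP3A4 and SLCO1A2 were tested through their pLB arrays alone, so that their counting as higher is not independent of the filter. The same holds for CYP11A1, which counts as higher only without the 2-fold threshold. With all 6 arrays required to be above background, 22 genes were tested, 6 of them higher and 3 lower. The median log2 fold change of the 31 genes was 0.10. On all 6 arrays, 16 genes were at background. AKR1C2, SULT1A1, SULT1A3, UGT1A1, UGT2B17 and UGT2B28 had no probe of their own name, and their transcripts are listed for probes named after close paralogs.

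**Figure D4:**
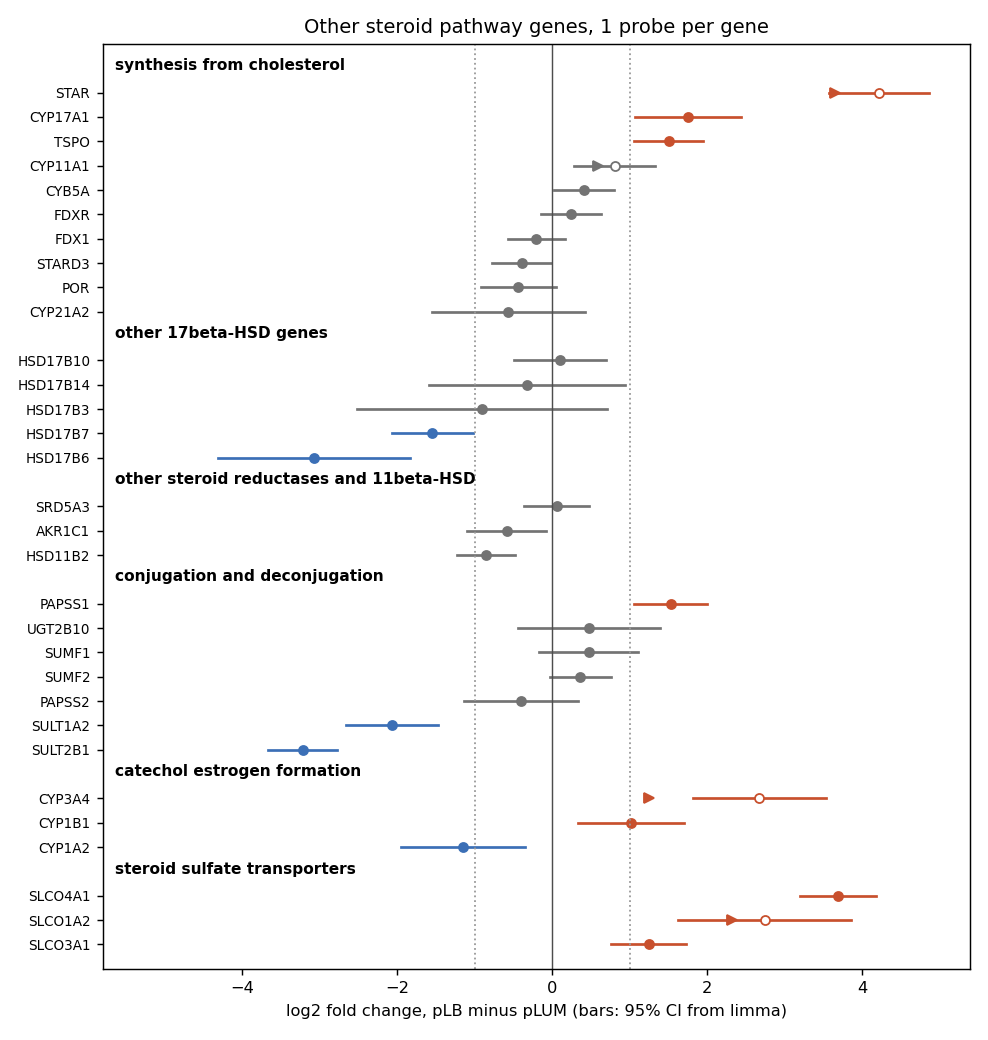
Log2 fold change, pLB minus pLUM, of the 31 tested pathway genes (1 probe each) with 95% CI from limma, grouped by list, red for higher, blue for lower and gray for genes that did not pass. Open points have pLUM at background, with an arrowhead at the lower bound, and STAR, at least 12.6-fold, and SLCO4A1, 13.0-fold, are farthest to the right. With normexp, which is not drawn, the log2 fold change of STAR was 1.29.

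Of 15 genes for synthesis from cholesterol, 10 were tested, of which 3 were higher and 0 lower by limma (4 and 0 without the 2-fold threshold). STAR, which delivers cholesterol to the inner mitochondrial membrane, was above background on 0 of 3 pLUM and 3 of 3 pLB arrays. With the processing reported here it rose by at least 12.6-fold, as a bound. Its fitted log2 fold change was 4.21 (adjusted p = 1.6e-05 from limma). With normexp the fitted value was 1.29, well under that bound, and STAR was still called (adjusted p = 0.021 from limma). CYP17A1, which makes androgen precursors, was 3.37-fold higher (adjusted p = 0.0014 from limma), but did not pass with normexp (adjusted p = 0.20 from limma, with 0.00017 to 0.20 over the alternatives). TSPO, a protein of the outer mitochondrial membrane, was 2.84-fold higher. CYP19A1, which encodes aromatase, the enzyme that makes estrogens from androgens, had 4 probes, and HSD3B1 and HSD3B2 had 1 each. All 6 were above background on 0 of 6 arrays.

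Of the 7 other 17β-HSD genes, 5 were tested, with 0 higher by limma (also 0 without the 2-fold threshold) and 2 lower. HSD17B6, an oxidative enzyme of androgen metabolism, fell 8.41-fold (adjusted p = 0.0018 from limma) and was above background on 2 of 3 pLB arrays. Its log2 fold change was -3.07, but -2.40 without pLB replicate 3, -2.365 with dim signals raised to the faintest above background and -1.425 with normexp. HSD17B6 was still called lower each time. HSD17B7, which reduces estrone and also serves cholesterol synthesis, had 5 probes that were 1.69-fold to 4.81-fold lower, of which 4 passed, the representative at 2.93-fold. RefSeq lists pseudogenes of HSD17B7 as well. HSD17B3, HSD17B10 and HSD17B14 had log2 fold changes of -0.91, 0.10 and -0.33, with adjusted p-values of 0.28, 0.74 and 0.62 from limma. HSD17B3 was called lower without pLB replicate 2 (-1.67). HSD17B14 was -1.47 for pLB replicate 1 within slide 1 and 0.25 without that array. HSD17B11 was not tested. It read -7.53, -7.68 and -7.69 in pLUM and -1.86, -4.90 and -7.03 in pLB, so that the pLB arrays spread widely and only pLB replicates 1 and 2 were above background.

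Among other steroid reductases and the 11β-HSDs, 3 of 8 genes were tested, with 0 called in either direction by limma (0 higher and 2 lower without the 2-fold threshold). AKR1C1, a paralog of AKR1C3 that inactivates progesterone, had a log2 fold change of -0.59 by its representative probe (adjusted p = 0.048 from limma) and of -1.62 by another, which passed as 3.07-fold lower. Both probes are also listed for AKR1C2. AKR1C3 was 25.3-fold higher on the same arrays, and the difference between these paralogs was not tested. SRD5A3 had a log2 fold change of 0.06 (adjusted p = 0.80 from limma). SRD5A2 was above background on 1 of 3 pLUM and 0 of 3 pLB arrays.

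Conjugation and deconjugation were represented by 17 genes, of which 7 were tested, 1 higher and 2 lower. PAPSS1, which makes the sulfate donor that SULT1E1 uses, rose 2.88-fold in pLB (adjusted p = 0.00048 from limma). PAPSS2, of the same list, did not pass and had a log2 fold change of -0.41 (adjusted p = 0.29 from limma). SULT2B1, which sulfates cholesterol and pregnenolone, fell 9.34-fold (adjusted p = 1e-05 from limma) and was above background on 2 of 3 pLB arrays. Its log2 fold change was -3.22, but -1.89 with normexp, where it was still called lower. SULT1A2, a phenol sulfotransferase with a near-identical neighbor in SULT1A1, was 4.18-fold lower (adjusted p = 0.00033 from limma). SULT1E1 was thus called higher and these other sulfotransferases lower.

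All 3 tested genes of catechol estrogen formation passed, 2 higher and 1 lower, beside 45.7% that passed in either direction among all tested genes. CYP3A4 was tested through its pLB arrays alone. CYP1B1, which forms catechol estrogens from estradiol, was 2.02-fold higher (adjusted p = 0.018 from limma), with another probe at 1.32-fold that did not pass. CYP1B1 was no longer called without pLUM replicate 3 (log2 fold change 0.78), without pLB replicate 3 (0.79), with quantile normalization (0.84) or with the mean of its probes (0.71), nor with the replicate block (adjusted p = 0.059 from limma) or the methods' t-test after Benjamini-Hochberg adjustment, and within slide 1 it was 0.66. Its adjusted p was 0.0078 to 0.18 over the alternatives. CYP1A2, which also hydroxylates estradiol, fell 2.22-fold (adjusted p = 0.021 from limma), but was not called without pLUM replicate 1 (-1.16), pLUM replicate 2 (-1.05), pLB replicate 1 (-0.79) or pLB replicate 2 (-1.17), nor with normexp (-0.84), with spike-in scaling (-0.95) or by the methods' t-test after Benjamini-Hochberg adjustment. Its adjusted p was 0.0028 to 0.081 over the alternatives. CYP3A4 was above background on 0 of 3 pLUM arrays and at least 2.38-fold higher in pLB, but with normexp its log2 fold change was -0.12.

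Of 6 transporters that can take up steroid sulfates, 3 were tested and 3 were higher, beside 22.7% of all tested genes. SLCO1A2 was tested through its pLB arrays alone. SLCO4A1 was 13.0-fold higher (adjusted p = 8.3e-06 from limma), SLCO3A1 2.37-fold by one probe and 6.53-fold by another, and SLCO1A2, which was at background in pLUM, at least 4.99-fold. SLCO1A2 and SLCO3A1 did not pass with normexp, which gave SLCO1A2 a log2 fold change of 0.35, well under its bound. The 2 other SLCO1A2 probes were at background on all arrays, as were SLCO1B3, SLCO2B1 and SLC10A6.

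The receptors for the estrogens that these enzymes handle were lower in pLB or not detected. ESR1, which encodes estrogen receptor α, was 3.47-fold lower by its representative probe and at least 38.7-fold and 20.4-fold lower by those at background in pLB. The probes of ESR2, which encodes estrogen receptor β, were above background on 0 of 6 arrays.

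For HSD17B1, the member with the largest decrease, the genes with the most similar profile over the 6 arrays were sought among 17665 tested genes, by the root-mean-square (RMS) difference of log2 signals after each gene was centered on its own mean. They were PIGZ (RMS 0.05), TFAP2A (0.07) and ZBTB7B (0.09), which were 7.36-fold, 7.14-fold and 7.31-fold lower in pLB and, like HSD17B1, above background on all 6 arrays. This likeness rests on 6 arrays of 2 lines and describes chiefly the size of the difference between the lines. No such likeness is given for SULT1E1, whose pLUM values were at background.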

How the data were processed

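The authors deposited scanner files, written per the file headers by Agilent Feature Extraction 10.10.1.1, in which every spot has a linear intensity with background and spatial trend removed, and with no normalization across arrays. Names and positions (hg19) are those of the files. The submitters' processing notes name Partek, whose output was not used here. These deposited intensities were divided by the 75th percentile of their array (450 to 873) and expressed as log2, spots flagged as outliers (296 to 387 on an array) and controls were dropped, and replicate spots were averaged. No gene spot was saturated. On each array 21285 to 22775 probes were above background, meaning that at least 50% of a probe's spots carried the flag. Probes above background on at least 3 of 6 arrays (23105) entered lmFit and eBayes of limma 3.58.1 (R 4.3.3), and p-values were adjusted by Benjamini-Hochberg over all of them. On simulated arrays the fit recovered 50 of 100 probes changed by 1.5 on the log2 scale and 72 of 100 changed by 2. Far fewer probes were changed there than were called in the data, so that the simulation does not measure how the calls here perform. Calls required 2-fold and an adjusted p under 0.05. For counts of genes, the tested probe of highest mean signal stood for its gene. Where a line had no array above background, each of its arrays was given the faintest signal above background, or the probe's own if higher, and the fold against the mean of the brighter line is written as a bound.

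Named genes are every member, the called genes and tested paralogs of the pathway lists, the receptors, the line markers and, for likeness, the 3 closest genes of the called members that rose and fell most, given here for HSD17B1 only. HSD17B11, SRD5A2, PAPSS2, CYP19A1, HSD3B1, HSD3B2, SLCO1B3, SLCO2B1, SLC10A6 and the genes with no probe of their own were named after their values were seen. The members, the lists and the rule were chosen with earlier results of these data known. A pathway gene and a receptor of the lists are not reported here and enter none of the counts of pathway genes. Alternatives were normexp background correction with an offset of 50, quantile, median and spike-in scaling, 3 treatments of dim probes and no fold threshold. Others were the methods' t-test, the mean of a gene's probes, blocks for slide and replicate, and omission of each array. Few arrays limit the precision.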

Additional observations from a re-analysis of the deposited data

How the results depend on the processing

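Of 132 values of the 7 tested members under alternatives, 125 kept their direction and call, 7 passed newly and 0 lost a call or reversed. These are not 132 separate checks. The filters on dim probes, the t-tests and the replicate block left the log2 fold change as it was. Dropping the fold threshold could not remove a call. The number of members higher in pLB, 3, became 5 with spike-in scaling and without a fold threshold, each time with HSD17B4 and SRD5A1 added. It was also 5 with slide as a block, a fit in which pLB replicate 1 alone stands for pLB. It was 3 to 4 with each array left out, and the number lower was 2 to 2. SULT1E1 could not be tested where all 6 arrays had to be above background. Of the other pathway genes, 5 in place of 9 were higher with normexp, and 3 in place of 5 were lower when all 6 arrays had to be above background, which left 22 genes tested. With each array left out they numbered 8 to 9 higher and 4 to 5 lower. The cause was not tested unless given.

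The median gene shifted by 0.20 on the log2 scale toward pLB with spike-in scaling, and 57.9% of called genes were then higher, against 49.6%. Log2 fold changes that reversed were, with normexp, CYP11A1 (-0.32), SRD5A3 (-0.13), UGT2B10 (-0.32) and CYP3A4 (-0.12), of which only CYP3A4 had been called. With the mean of the probes they were POR (0.18) and SUMF1 (-0.24), with quantile normalization HSD17B10 (-0.11), and with slide as a block SRD5A3 (-0.14), PAPSS2 (0.17) and UGT2B10 (-0.37). With each array left out, HSD17B10 ranged from -0.092 to 0.36 and HSD17B14 from -0.84 to 0.25, both turning without pLB replicate 1, and SRD5A3 from -0.02 to 0.16, turning without pLUM replicate 3 or pLB replicate 3. None of the reversed values passed.

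The replicate numbers were not treated as pairs in the main fit. Deviations of same-numbered arrays from the means of their lines correlated at -0.26, -0.09 and -0.22. Deviations from a mean of 3 arrays are tied to one another, so that these values cannot decide whether same-numbered sorts were handled together. With the replicate number as a block, 3 members were higher and 2 lower, and 8 other pathway genes were higher and 5 lower. Signals near background limit what can be read of STS, HSD17B2 and SRD5A1. They also limit the size of the folds of SULT1E1, at background in pLUM, and AKR1C3, faint in pLUM.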
